A study of Mus musculus with 5 samples.

Results

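The MYC, MAX and MXD network was followed in mouse leukaemia-type progenitors with and without Mll1, a histone H3 lysine methyltransferase gene. Its 10 genes, Myc, Mycn, Max, Mxd1, Mxi1, Mxd3, Mxd4, Mnt, Mga and Mlx, were chosen by name, and each had 1 row among the 31626 gene rows. The data are RNA sequencing of common myeloid progenitors from C57Bl/6 mice, transformed with a retroviral vector (MSCV) carrying the leukaemia gene MN1 and GFP, and grown in methylcellulose medium (M3234) with serum, IL3, IL6 and SCF. The Mll1 knockout group (2 libraries) held cells with floxed Mll1 alleles 7 days after transduction with Cre, labelled Mll1 -/-. The control group (3 libraries) held Mll1 flox/flox cells 7 days after transduction with the control vector. All libraries therefore carry the MN1 vector and all were made from sorted cells. Effects of Cre itself and of the Mll1 deletion cannot be told apart, since no Cre-treated cells with wild type Mll1 were analysed here. Whether libraries of a group are separate mice or cultures is not in the labels, and the p-values therefore reflect spread between libraries that may be technical.

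MYC proteins are basic helix-loop-helix leucine zipper transcription factors that bind DNA as dimers with MAX and promote cell growth. The MXD proteins, MXI1, MNT and MGA also pair with MAX, and their dimers repress genes at the same sites. The MXD, MXI1 and MNT dimers do so through the SIN3 co-repressor. MLX is a MAX-like protein that pairs with MondoA and ChREBP, which answer to glucose, and also with some MXD proteins and MNT. In blood cell differentiation MYC is known to give way to MXD proteins, of which MXD1 is known from maturing granulocytes.

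The shared DNA element of these dimers is the E-box CACGTG, which reads the same on both strands. Of the 9 members with a promoter sequence in RefSeq (GRCm38.p6, 250 bases before to 50 after a start site), 4 held it. It was present in 8.09% of the 27025 genes with such a sequence. The stretches of 30 bases around it are shown with the E-box in capitals, because CACGTG is an element that dimers of the network can bind. A match describes letters only and no binding was measured.
Mlx (chr11:101087238-101087267, plus strand, E-box starting at base -40): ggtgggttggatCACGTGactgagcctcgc
Max (chr12:76962234-76962263, minus strand, E-box starting at base -3): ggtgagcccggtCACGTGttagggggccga
Mnt (chr11:74830789-74830818, plus strand, E-box starting at base -123): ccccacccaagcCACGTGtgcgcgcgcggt
Mxd4 (chr5:34187912-34187941, minus strand, E-box starting at base -219): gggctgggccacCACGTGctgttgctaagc
Mycn, Mxd1, Mxd3, Mga and the 3 windows of Mxi1 did not hold these letters. Among the 2 members called below, the E-box letters were in the window of Mlx and not in that of Mycn.

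Levels are in FPKM, a fragment count divided by gene length and by the size of the library, so that genes can be compared per length. Absolute depth is unknown because the deposited values are not counts. Relative to control replicate 1, 1 read was worth between 0.979 and 1.017 as much in the remaining libraries. This was estimated from the commonest ratio of low values, searched only near 1, so it does not show equal depth. Control replicate 1 had fewer genes at 0 (11672) than the remaining libraries (12694 to 13061). Its summed FPKM was lower (579481, against 615802 to 642599). Mll1 itself stood at 6.22 and 5.32 FPKM in knockout libraries, against 9.67, 7.28 and 7.19 FPKM in control libraries. Both knockout values lay below every control, with a log2 change of -0.41 and a limma adjusted p of 0.158. The labels do not say which exons are floxed, so a value over the whole gene neither shows nor refutes the deletion. The progenitor genes Kit (57.1 to 61.0 FPKM in knockouts, 64.6 to 112 FPKM in controls) and Cd34 (212 to 216 FPKM in knockouts, 587 to 685 FPKM in controls) were present in all libraries. Of the lymphoid markers reported here, Pax5, Cd3g and Ncr1 were listed at 0 throughout, and Cd79a, Cd3e and Cd4 stayed at or under 0.513 FPKM. The cytotoxic granule gene Nkg7 was called lower, at 79.8 and 71.1 FPKM in knockouts against 124, 169 and 135 FPKM in controls (log2 change -0.90, limma adjusted p = 0.0328). Control replicate 1 stood apart from the other controls. Over 11 neutrophil markers the summed level was 22434 and 20701 FPKM in knockouts, against 6410 FPKM in control replicate 1 and 793 and 1055 FPKM in control replicates 2 and 3. S100a8 and S100a9 gave 98.0% and 97.9% of that sum in knockouts, against 94.6%, 80.4% and 84.5% in controls.

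Of the 10 members, all passed the filter of 1 FPKM in at least 2 libraries, 1 rose (Mlx) and 1 fell (Mycn) in the knockout libraries at a limma adjusted p under 0.05. Over all 11780 genes tested, 3.82% rose and 5.97% fell, 9.79% in all, a share at which a list of 10 would hold about 1. All log2 changes are of FPKM + 1, knockouts less controls, a scale on which changes of low genes look smaller than they are. The median size of the log2 change, without its sign, was 0.30 over the members and 0.22 over all genes tested. The knockout and control libraries did not overlap for 6 members, Mlx, Mxd1 and Mnt with knockouts above and Myc, Mycn and Mga with knockouts below. The same held for 52.4% of the genes tested (22.9% above and 29.4% below).

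**Figure D1:**
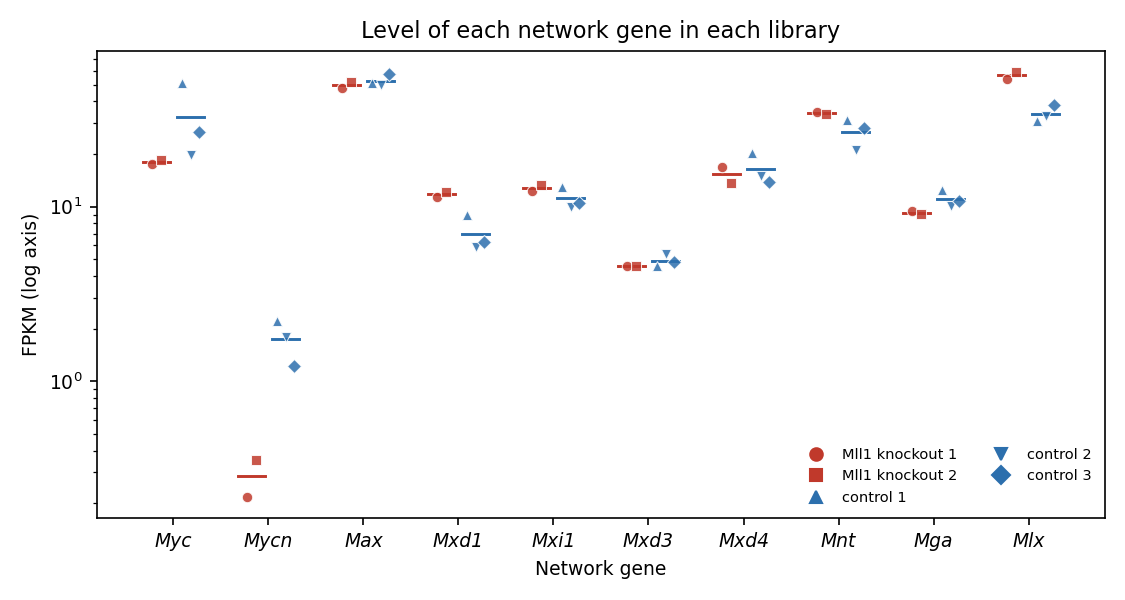
Level of each of the 10 network genes in FPKM (vertical log axis) in the 2 Mll1 knockout libraries (red) and the 3 control libraries (blue), with a symbol for each library and a line at the group mean. Mlx lies higher in both knockouts (53.9 and 59.0 FPKM) than in every control, Mycn lies lower (0.218 and 0.353 FPKM), and Myc is spread widely in the controls.

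**Figure D2:**
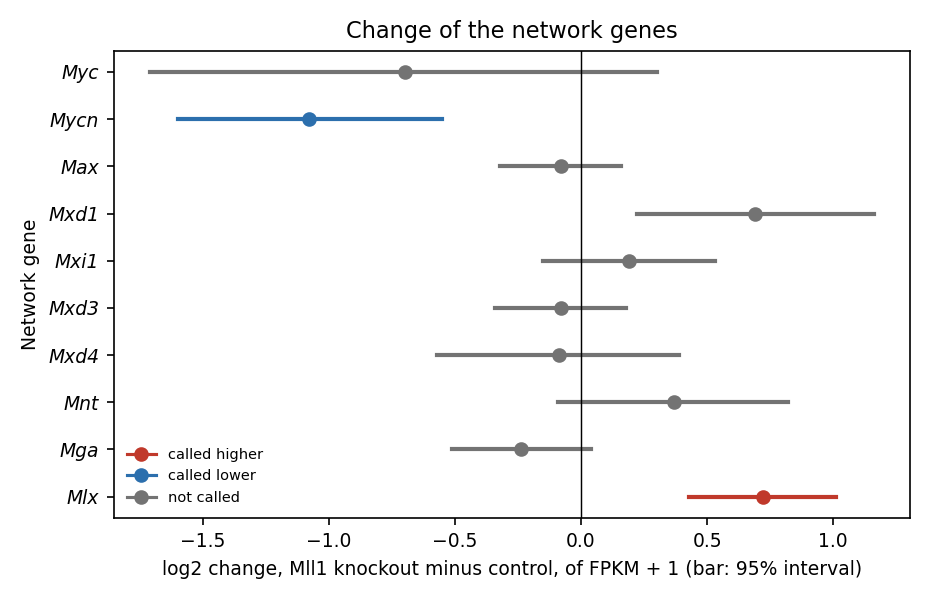
Log2 change of FPKM + 1, Mll1 knockout minus control, for each network gene (point) with its 95% interval from limma (bar); red marks a gene called higher, blue one called lower and grey one not called. The intervals of Mlx (0.43 to 1.01), Mxd1 (0.22 to 1.16) and Mycn (-1.60 to -0.55) do not include 0, and that of Myc is the widest.

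The MYC genes differed in level and in how well they could be measured. Myc, the ubiquitous member that drives ribosome and nucleotide production, stood at 17.6 and 18.5 FPKM in knockout libraries, against 50.9, 19.8 and 26.7 FPKM in control libraries. Both knockouts lay just under the lowest control, and control replicate 1 was far above the other controls. The log2 change was -0.70 (95% interval -1.71 to 0.30, limma adjusted p = 0.294, exact permutation p = 0.2 over 10 splits, two-sided), so Myc was not called. Without control replicate 1 the log2 change was -0.33. Mycn, the family member of stem cells and the embryo, stood at 0.218 and 0.353 FPKM in knockout libraries, against 2.22, 1.78 and 1.22 FPKM in control libraries. Every knockout value was below every control, and the means were 0.285 ± 0.0956 FPKM in knockouts (SD, n = 2) and 1.74 ± 0.503 FPKM in controls (SD, n = 3), which is 6.09-fold lower. Mycn fell, with a log2 change of -1.08 (standard error 0.205, limma adjusted p = 0.0416, exact permutation p = 0.1, the smallest that 10 splits allow). It passed the filter only through the controls, so its call is no support for a change of the network. Its call was lost with a pseudocount of 5 FPKM (log2 change -0.35, adjusted p = 0.0541), and with a pseudocount of 0.1 FPKM the log2 change was -2.24. The call was also lost without knockout replicate 1 (adjusted p = 0.283) or 2 (0.259) and without control replicate 2 (0.123) or 3 (0.0637), but not without control replicate 1 (0.0266). The summed progenitor markers were also lower in the knockouts, at 510 and 487 FPKM in knockouts against 1186, 997 and 960 FPKM in controls over 8 genes, none of them at 0. Of the 8, Cd34, Flt3 and Sox4 were called lower and Gata2 higher, beside 5.97% lower and 3.82% higher over all genes tested. Gata2 stood at 67.4 and 63.8 FPKM in knockouts against 49.6, 52.5 and 48.2 FPKM in controls (adjusted p = 0.0439), and Ly6a, not called, also lay above all controls. The part of these markers in the fall of Mycn was not tested. In these bulk libraries fewer cells of a type and less RNA per cell cannot be told apart.

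Max, the shared partner of the MYC, MXD, MNT and MGA proteins, differed little between libraries. It stood at 47.9 and 51.7 FPKM in knockout libraries, against 50.9, 49.8 and 57.4 FPKM in control libraries. The groups overlapped, and the interval of the log2 change (-0.079) ran from -0.32 to 0.16 (limma adjusted p = 0.617).

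Of the 4 MXD genes, Mxd1 had the largest log2 change. Mxd1, the repressor linked to granulocyte maturation, stood at 11.4 and 12.1 FPKM in knockout libraries, against 8.93, 5.83 and 6.24 FPKM in control libraries. Both knockouts were above every control, and control replicate 1 was the highest control. The log2 change was 0.69 (standard error 0.184, limma adjusted p = 0.0793), so Mxd1 was not called with all libraries. Without control replicate 1, when 11.9% of all genes rose and 18.0% fell, it was called higher, with a log2 change of 0.86 and an adjusted p of 0.00747. The order of the libraries in Mxd1 (knockouts, then control replicate 1, then the remaining controls) was also that of the neutrophil markers S100a8, S100a9, Lcn2 and Cebpe. These were the 4 of 9 tested with knockouts above all controls, beside 22.9% of all genes tested, and Lcn2 was called higher. Other markers did not share this order. Ltf, Camp and Ngp were highest in control replicate 1, as Ngp shows with 64.7 and 58.3 FPKM in knockouts against 106, 4.05 and 4.52 FPKM in controls, and Mmp8 was lowest there (52.5 and 54.4 FPKM in knockouts, against 38.7, 65.0 and 64.3 FPKM in controls). Among 11 markers none was at 0 in every library, Mmp9 was under 0.1 FPKM in all, and the part of these markers in the level of Mxd1 was not tested.

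The other MXD genes showed smaller differences. Mxi1, a further repressor that pairs with MAX, stood at 12.3 and 13.2 FPKM in knockout libraries, against 13.0, 9.89 and 10.5 FPKM in control libraries. The groups overlapped through control replicate 1 (limma adjusted p = 0.387). Without that library, when 11.9% of all genes rose, the log2 change was 0.30 and Mxi1 was called higher (adjusted p = 0.0462). In the GENCODE M21 annotation 194 of the 6823 exon bases of Mxi1 lie in Gm10197, a gene on the opposite strand. That gene was listed at 118 and 129 FPKM in knockouts, against 91.9, 78.2 and 68.6 FPKM in controls, above Mxi1 in every library, and whether the counting used strand is not given in the sources used here. Mxd3, the member linked to proliferating cells in S phase, was the lowest MXD gene, at 4.59 and 4.56 FPKM in knockout libraries against 4.54, 5.35 and 4.83 FPKM in control libraries. The groups overlapped (log2 change -0.08, interval -0.34 to 0.18, adjusted p = 0.649), and the sign turned to 0.05 after quantile normalization. Mxd3 shares 105 of 2369 exon bases with Prelid1 on the opposite strand, which was listed at 150 to 172 FPKM over the libraries. Mxd4 was the highest MXD gene, at 16.9 and 13.7 FPKM in knockout libraries against 20.3, 15.0 and 13.9 FPKM in control libraries. Here the 2 knockout libraries differed by more than the group means did (log2 change -0.088, adjusted p = 0.792), and the sign turned without control replicate 1 (0.066) or without knockout replicate 2 (0.056).

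The large repressor genes Mnt and Mga were not called. Mnt, a widely expressed antagonist of MYC, stood at 34.9 and 34.0 FPKM in knockout libraries, against 31.3, 21.0 and 28.3 FPKM in control libraries. Mga, which carries a second DNA-binding domain of the T-box type and belongs to a variant Polycomb complex (PRC1.6), stood at 9.38 and 9.06 FPKM in knockout libraries, against 12.4, 10.1 and 10.7 FPKM in control libraries. The groups did not overlap for either gene, with knockouts above for Mnt and below for Mga. Neither passed the test, with log2 changes of 0.37 for Mnt (interval -0.091 to 0.82, limma adjusted p = 0.244) and -0.24 for Mga (interval -0.51 to 0.038, adjusted p = 0.217).

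Mlx, the partner in the glucose-responsive arm, had the smallest p of the members. It stood at 53.9 and 59.0 FPKM in knockout libraries, against 31.0, 33.0 and 38.2 FPKM in control libraries. The groups were far apart compared with the spread within each, with means of 56.4 ± 3.60 FPKM in knockouts (SD, n = 2) and 34.1 ± 3.75 FPKM in controls (SD, n = 3). Mlx rose 1.66-fold, with a log2 change of 0.72 (standard error 0.113, interval 0.43 to 1.01, limma adjusted p = 0.0285, exact permutation p = 0.1, the smallest possible). Control replicate 1 was the lowest control. Without that library, when 11.9% of all genes rose, the log2 change was 0.65 and Mlx stayed called (adjusted p = 0.0192). Some markers of other cell types were called higher, beside 3.82% of all genes tested. Among them were Alas2, Klf1 and Gata1 of 6 tested erythroid markers, Mcpt8 of 4 tested mast cell and basophil markers, and Lcn2 of 9 tested neutrophil markers. Of 6 tested monocyte and macrophage markers, Irf8 (log2 change -1.74) and Ccr2 (-1.35) were called lower, beside 5.97% of all genes tested. The 8 erythroid markers summed to 41.4 and 39.8 FPKM in knockouts, against 24.1 FPKM or less in control replicates 2 and 3, while control replicate 1 lay above both knockouts. The 7 mast cell and basophil markers summed to 1101 and 1124 FPKM in knockouts, against 522, 756 and 680 FPKM in controls. No gene of these lists was at 0 in every library, and their part in the rise of Mlx was not tested. Over 13 other settings the log2 change of Mlx ran from 0.65 to 0.80 and its adjusted p from 0.0192 to 0.26, and 6 of these settings lost the call. Among them were the fits without knockout replicate 1 (adjusted p = 0.209) or 2 (0.26) and without control replicate 2 (0.0989) or 3 (0.0524). Mlx shares 385 of 1999 exon bases with Psmc3ip on the opposite strand, which stood at 24.1 and 24.9 FPKM in knockouts, against 19.5, 29.5 and 30.0 FPKM in controls (log2 change -0.074, adjusted p = 0.838).

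The order of the levels differed at the top. In the knockout libraries Mlx was the most abundant member in both, followed by Max, Mnt and Myc. In control replicates 2 and 3 the order was Max, Mlx, Mnt and Myc, and in control replicate 1 Myc (50.9 FPKM) and Max (50.9 FPKM) were level, followed by Mnt and Mlx. The values of Mlx and Max did not overlap within either group, but lay in opposite order. Mlx per unit of Max was 1.12 and 1.14 in knockouts, against 0.608, 0.662 and 0.666 in controls, a ratio within each library that scaling does not alter. In every library the lower places began with Mxd4 and ended with Mxd3 and then Mycn. Between them Mxi1, Mxd1 and Mga lay within 5.83 and 13.2 FPKM, with Mga above Mxd1 in all controls and below it in both knockouts.

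Summed over classes, MYC transcripts were a smaller share of the network in both knockouts than in any control. Myc alone gave 8.43% and 8.57% of the FPKM of the 10 members in knockouts, against 22.6%, 11.5% and 13.5% in controls. Mlx is among the 10, and its higher level in the knockouts by itself lowers the share of every other member. Myc and Mycn together came to 17.8 and 18.9 FPKM in knockouts, against 53.2, 21.6 and 27.9 FPKM in controls. The 6 repressor genes Mxd1, Mxi1, Mxd3, Mxd4, Mnt and Mga came to 89.5 and 86.6 FPKM in knockouts, against 90.5, 67.2 and 74.6 FPKM in controls. The repressor sum overlapped between the groups through control replicate 1, while the MYC sum did not overlap. Of all single genes tested, 52.4% did not overlap either. The ratio of repressor to MYC transcripts was 5.01 and 4.59 in knockouts, against 1.70, 3.11 and 2.67 in controls. It was higher in both knockouts than in every control, and the widest gap among controls was between replicates 1 and 2. Within the MXD genes, Mxd1 gave 25.2% and 27.8% of the summed FPKM in knockouts, against 19.1%, 16.1% and 17.6% in controls. No test is given for these sums and ratios, because they add members chosen with earlier results known.

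**Figure D3:**
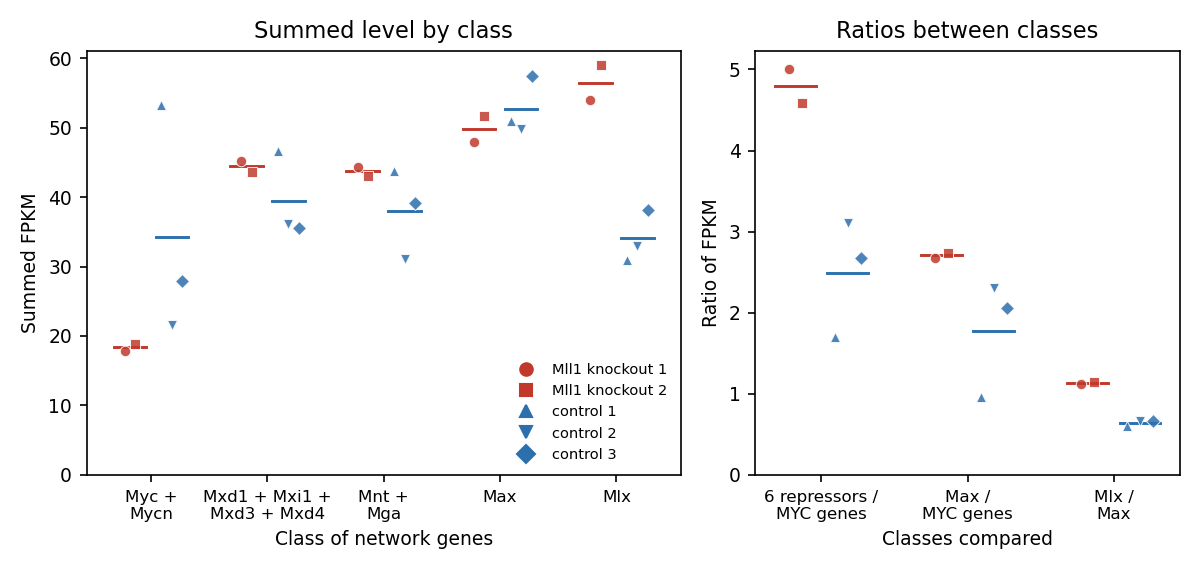
Left, FPKM summed over classes of network genes; right, ratios between such sums within each library; red symbols are the 2 Mll1 knockout libraries and blue symbols the 3 control libraries, with a line at each group mean. The repressor to MYC ratio is 4.59 or more in the knockouts and 3.11 or less in the controls, and Mlx exceeds Max in the knockouts alone.

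The remaining genes of the network were low or not called. Mlxip, which encodes MondoA, the partner of MLX, stood at 14.5 and 13.3 FPKM in knockout libraries, against 17.3, 14.6 and 14.1 FPKM in control libraries (limma adjusted p = 0.504). Mlx per unit of Mlxip was 3.71 and 4.44 in knockouts, against 1.79, 2.26 and 2.71 in controls. Mlxipl, which encodes ChREBP, and Mycl1 stayed at or under 0.172 FPKM in every library, and Bmyc, a MYC-like gene known from rodents, at or under 0.813 FPKM. Mycbp2, an E3 ubiquitin ligase gene, had the smallest p of the 5 tested genes of this list, at 13.5 and 13.0 FPKM in knockouts against 17.2, 16.5 and 16.9 FPKM in controls (adjusted p = 0.0556). None of the 5 was called by limma, beside 9.79% of all genes tested, and 2 had an unadjusted p under 0.05, beside 29.8% of all genes tested. Mlxip, Mlxipl, Mycl1 and Bmyc were picked out for their place in the network and after their values had been seen.

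Lists of proteins that work with the network had no member called by limma, beside 9.79% of all genes tested. An unadjusted p under 0.05 was found for 29.8% of all genes tested, and the counts below are to be read beside that share. Of 19 genes of the SIN3 co-repressor, which MXD proteins and MNT recruit, 2 had an unadjusted p under 0.05, and the smallest p was that of the SIN3 subunit gene Fam60a (2.70 and 2.77 FPKM in knockouts, against 4.16, 3.55 and 3.92 FPKM in controls, adjusted p = 0.0879). Of 15 MYC cofactor genes 2 had an unadjusted p under 0.05, led by Wdr5, a core subunit of MLL complexes that also binds MYC (78.5 and 82.2 FPKM in knockouts, against 65.5, 66.5 and 66.9 FPKM in controls, adjusted p = 0.0672). Of 16 genes of MYC protein turnover 4 had one, led by the mitotic kinase gene Plk1 (63.6 and 67.7 FPKM in knockouts, against 38.0, 43.7 and 49.6 FPKM in controls, adjusted p = 0.0535). Of 12 partners of MGA in PRC1.6, 2 had one, led by the heterochromatin protein gene Cbx1 (49.8 and 50.3 FPKM in knockouts, against 57.3, 59.2 and 61.3 FPKM in controls, adjusted p = 0.0919). The list medians of the log2 change were -0.037, 0.12, -0.00046 and -0.024, beside -0.028 over all genes tested. Without control replicate 1, where 29.8% of all genes were called, 1 rose and 1 fell in the SIN3 list, 2 rose among the cofactors, 3 rose and 3 fell in the turnover list and 2 fell among the MGA partners.

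Genes known to be induced by MYC had no member called. Of 39 tested in limma none passed, beside 9.79% of all genes tested. An unadjusted p under 0.05 was found for 3, all higher in the knockouts, beside 29.8% of all genes tested, and the median log2 change was 0.11. The smallest p was that of Nop16, a ribosome biogenesis gene, at 122 and 124 FPKM in knockouts against 88.2, 97.7 and 97.6 FPKM in controls (adjusted p = 0.052). Without control replicate 1, 2 rose and 4 fell, when 29.8% of all genes were called. The serine and glycine enzyme gene Shmt2 stood at 347 and 362 FPKM in knockouts, against 183, 503 and 505 FPKM in controls. The polyamine enzyme gene Srm stood at 321 and 330 FPKM in knockouts, against 189, 284 and 297 FPKM in controls. Both were lowest in control replicate 1, as were most of the tested genes of this list. Gnl3, Hk2 and Eif4a1 were the only tested genes of the list that were highest there. Gnl3 stood at 108 and 109 FPKM in knockouts, against 119, 91.9 and 108 FPKM in controls. The genes named here other than Nop16 were picked out after their values had been seen, and their link to the level of Myc was not tested.

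Genes known to be repressed by MYC had 1 member called of 10 tested, a share near the 9.79% of all genes tested. An unadjusted limma p under 0.05 was found for 7, of which 5 were higher in the knockouts, beside 29.8% of all genes tested. Those lower were Cebpa and Ndrg1. Cdkn1c, which encodes the cell cycle inhibitor p57, rose to 1.8 and 1.14 FPKM in knockouts, against 0.262, 0.337 and 0.330 FPKM in controls (log2 change 0.90, limma adjusted p = 0.044). It passed the filter only through the knockouts, and it was not called with a pseudocount of 0.1 or 5 FPKM. The knockouts lay above all controls for 8 of the 10 genes and below for the other two, Cebpa and Ndrg1, beside 22.9% above and 29.4% below over all genes tested. The median log2 change was 0.43, beside -0.028 over all genes tested. Cdkn1c is among the 10 in all of these counts and in the median. Since its knockout values let it through the filter, it is no support in them. Without control replicate 1, 6 of the 10 were called, all higher, when 11.9% of all genes were called higher and 29.8% in all.

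Of 9 tested genes linked to MondoA and ChREBP, the partners of MLX, 1 was called higher and 1 lower, beside 3.82% and 5.97% of all genes tested. Fasn, the fatty acid synthase gene, rose to 96.9 and 99.5 FPKM in knockouts, against 65.1, 55.2 and 63.7 FPKM in controls (log2 change 0.67, limma adjusted p = 0.0239). Arrdc4, an arrestin-like gene that curbs glucose uptake, fell to 5.38 and 5.12 FPKM in knockouts, against 9.48, 10.1 and 8.05 FPKM in controls (log2 change -0.70, adjusted p = 0.0323). Its relative Txnip, the best known MondoA target, stood at 142 and 121 FPKM in knockouts and at 170, 81.4 and 77.9 FPKM in controls, so the groups overlapped through control replicate 1 (adjusted p = 0.574). The median log2 change of the 9 was 0.15. Neither Fasn nor Arrdc4 was called when any single library other than control replicate 1 was left out. Txnip was picked out after its values had been seen.

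**Figure D4:**
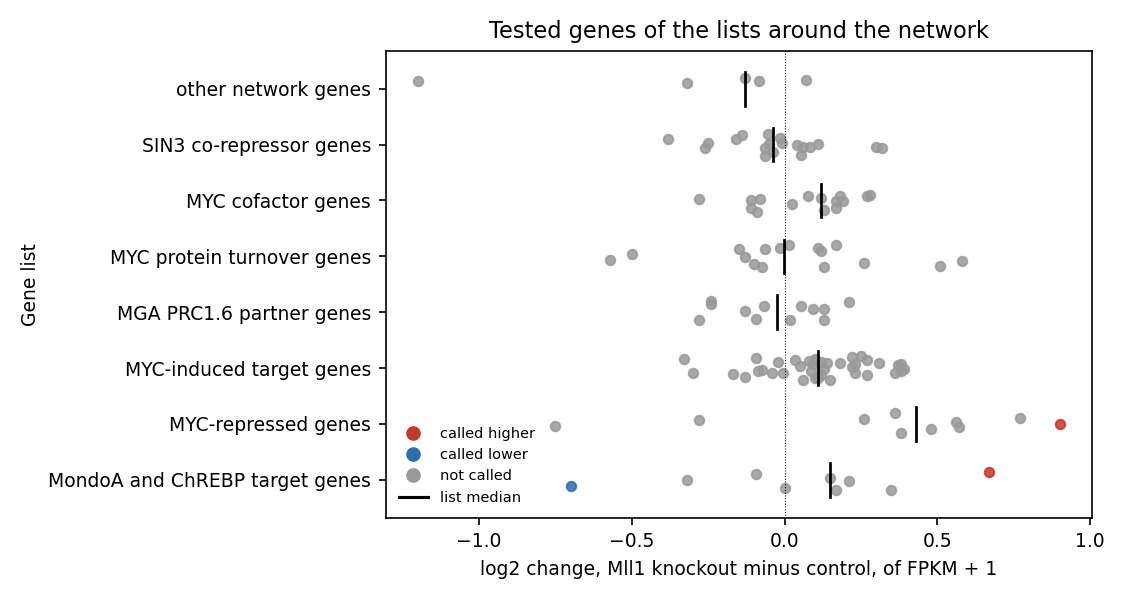
Log2 change of FPKM + 1, Mll1 knockout minus control, for each tested gene (point) of 8 lists around the network, with a black line at the list median; vertical jitter only separates the points. The called genes are Cdkn1c and Fasn (red, higher) and Arrdc4 (blue, lower), and the 39 MYC-induced genes centre on 0.11.

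**Figure D5:**
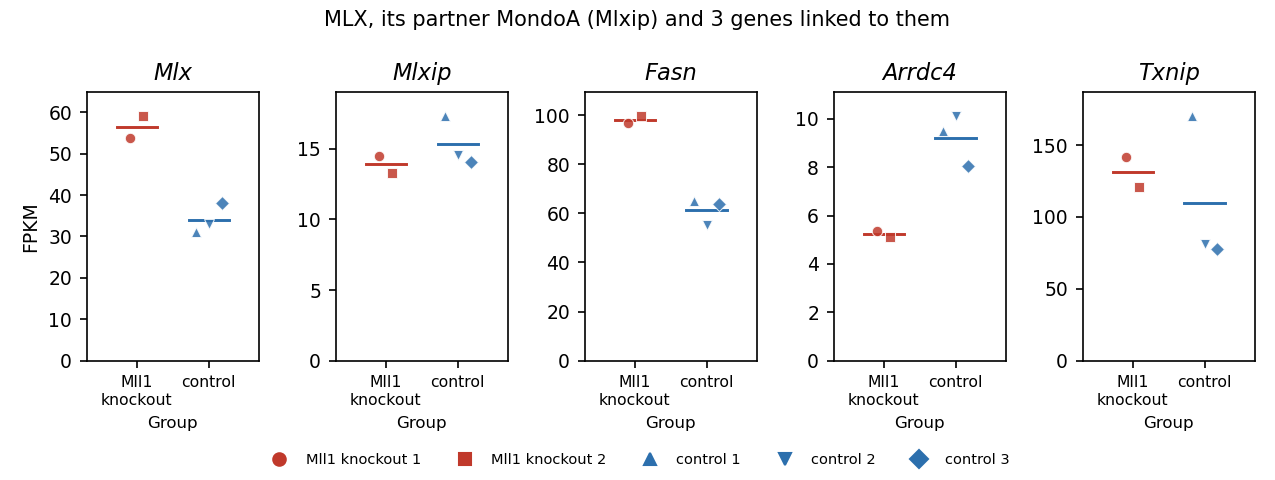
FPKM of Mlx, of its partner gene Mlxip and of Fasn, Arrdc4 and Txnip in the 2 Mll1 knockout libraries (red) and the 3 control libraries (blue), each axis starting at 0, with a line at the group mean. Mlx and Fasn lie higher and Arrdc4 lower in the knockouts, while Mlxip and Txnip overlap between the groups.

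The genes most like Myc and Mlx in pattern were sought among 7772 named genes with a mean of at least 5 FPKM, by the distance over the 5 libraries between log2(FPKM + 1) values centred on each gene's mean. Nearest to Myc were SNORA67, listed under a small nucleolar RNA name (distance 0.332), Bcar3, an adaptor protein gene (0.363), and Neto2, which encodes an auxiliary subunit of glutamate receptors (0.393). These share its high value in control replicate 1, as Bcar3 shows with 3.46 and 2.91 FPKM in knockouts against 11.3, 4.22 and 4.20 FPKM in controls. Nearest to Mlx were Cebpb, a myeloid transcription factor gene (0.051), and Soat1, a cholesterol esterification enzyme gene (0.0847). Cebpb stood at 34.9 and 37.0 FPKM in knockouts, against 20.2, 20.9 and 24.7 FPKM in controls. In GENCODE M21 Mll1, Mxd4, Cd34, Sox4, Cdkn1c, Cebpb and Bcar3 share exon bases with genes on the opposite strand that were not analysed here. For Sox4 these were 2616 of its 4795 exon bases. Reads of such pairs can be told apart only where counting used strand. A distance over so few libraries describes these libraries only.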

How the data were processed

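RNA was sequenced in 5 libraries of MN1-transformed progenitors (stranded mRNA kit, per the labels' protocols). The authors deposited FPKM per Ensembl gene and library; the tools in the submitters' processing notes are GSNAP, SAMtools, Cuffdiff and CASAVA 1.8.2, with build mm9. The annotation, strand use and treatment of multi-mapping reads are not stated there or in the labels. In 16 genes, none of them a member, a library held 999999999; these were treated as failed estimates and left out. The 11780 genes that reached 1 FPKM in 2 or more libraries entered limma (version 3.58.1, R 4.3.3) as log2 of FPKM plus 1. Its empirical Bayes step used an intensity trend, p-values were adjusted by Benjamini-Hochberg over all of these genes, and calls were made below 0.05. For members a two-sided exact permutation test over the 10 splits was added. On simulated data for this comparison (11780 genes, 200 changed, 20 runs) the limma step recovered 70.6% of log2 changes of 1 and 93.9% of changes of 2, with 4.99% false among the calls. The simulated noise was normal, drawn from the fitted variances and independent between genes. Shifts of many genes together in 1 library were not simulated, so these rates are not error rates of the real calls. The members and lists were chosen with earlier results of these data known. The text names all members; of each list around the network the called genes (up to 4) or else the gene with the smallest p; and the 3 genes nearest in pattern to Myc and to the member with the smallest p, of which 1 is not reported here. Exon overlaps come from GENCODE M21, matched by gene ID for 26606 of 31610 genes, and promoter sequences from RefSeq (GRCm38.p6); no coordinates were carried over to mm9. Other settings changed the pseudocount, filter, scaling or trend, added the replicate number as a block, or left out a library. List counts and the repressor to MYC ratio were added to these settings after seeing the data.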

Additional observations from a re-analysis of the deposited data

How the results depend on the processing

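With each library left out in turn, the genes called ran from 0 to 1398 higher and from 0 to 2118 lower (both 0 in limma without knockout replicate 2, with 1669 genes at an unadjusted p under 0.05), and the members called from 0 to 3 higher and from 0 to 1 lower. Without control replicate 1 the 3 higher were Mlx, Mxd1 and Mxi1; with any other library left out no member was called, and where a knockout is left out the lone sample is assumed to vary like the other group. The same range was 0 to 6 higher for MYC-repressed genes, 0 to 2 higher and 0 to 1 lower for MondoA and ChREBP targets, 0 to 2 higher and 0 to 4 lower for MYC-induced genes, 0 to 3 in each direction for turnover genes, 0 to 2 higher for cofactors, 0 to 2 lower for MGA partners, 0 to 1 in each direction for SIN3 genes and 0 to 1 lower for other network genes. The repressor to MYC ratio difference, knockout minus control mean (2.31), ran from 1.91 to 2.62. With no filter on low values, which tests 22571 genes, 238 genes were higher and 259 lower, and 0 members, 0 MYC-repressed genes and 0 MondoA and ChREBP targets were called in either direction. With a pseudocount of 5, or a mean of at least 5 FPKM, 0 members were called lower; the second leaves Mycn untested. MYC-repressed genes called higher were 0 under both, and 0 with a pseudocount of 0.1. The mean filter called 1 other network gene lower. Median-ratio scaling called 1 cofactor, 1 turnover gene, 1 MYC-induced gene and 2 MYC-repressed genes higher; quantile normalization called 1 turnover gene higher and 1 MYC-induced gene in each direction. Signs reversed for Mxd3 (0.05, quantile normalization) and for Mxd4 (0.056 without knockout replicate 2, 0.066 without control replicate 1, with a range of -0.23 to 0.066 over the libraries left out). Apart from these constructions the causes were not tested. Replicate numbers do not pair the libraries by the labels, and the same-numbered deviations correlated at 0.037 and 0.012. With the number as a replicate block 12 genes were higher and 43 lower. Under it 0 members, 0 MYC-repressed genes and 0 MondoA and ChREBP targets were called. Only the controls have a replicate 3, so the block takes up that library, and the member changes equal those without it. The block also leaves less data to estimate the spread, so its lost calls do not show pairing. Absolute depth is unknown, so no counting error can be given for low genes such as Mycn.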

Other observations

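Beside the called members, Tert and Myct1, low genes linked to the network, had knockouts below every control. The same held for 29.4% of all genes tested, which do not include Tert. Among other low genes of the lists, Fbxo32 and Gpd1 also lay below every control, and Cdkn2b and Pklr lay above. Tert, the telomerase catalytic subunit gene and a known MYC target, was below the filter and not tested, at 0.399 and 0.295 FPKM in knockouts against 1.13, 0.952 and 0.790 FPKM in controls. Of the 39 tested MYC-induced genes, knockouts lay above every control for 12 and below for 1. Myct1, named as a MYC target, stood at 1.65 and 0.191 FPKM in knockouts against 3.10, 3.67 and 2.56 FPKM in controls (limma adjusted p = 0.102), and its knockout libraries differed from each other by more than its controls did. Cell cycle inhibitor genes of the CIP/KIP family, which MYC is known to oppose, had knockouts above every control, beside 22.9% of all genes tested. Cdkn1a stood at 112 and 103 FPKM in knockouts against 94.6, 76.5 and 77.5 FPKM in controls (adjusted p = 0.114), and Cdkn1b at 20.8 and 19.0 FPKM in knockouts against 15.8, 11.3 and 12.5 FPKM in controls (adjusted p = 0.0796). Among the 16 tested MYC turnover genes, knockouts lay above every control for 6 and below for 4, with Fbxw7 among those below. Fbxw7, the ubiquitin ligase subunit gene that marks MYC for destruction, stood at 4.41 and 4.53 FPKM in knockouts against 7.83, 6.27 and 6.25 FPKM in controls (adjusted p = 0.0683). These genes were picked out after their values had been seen.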
